A study of Mus musculus with 8 samples.

Results

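The Egr factors and their Nab corepressors were followed here in mouse CD4+ T cells that had been activated through the T-cell receptor and then exposed to dorsomorphin. The set held 5 genes, Egr1, Egr2, Egr3, Nab1 and Nab2, of the 18194 genes with a probe set of their own on the array, and each gene was read from its brightest probe set carrying a single gene symbol. All 5 passed the filter on low signal, as did 13984 of all genes. Stimulation alone raised Egr1 by 11.9-fold, Egr2 by 73.6-fold and Egr3 by 125.8-fold on its brightest probe set, and dorsomorphin given after stimulation lowered them by 11.4-fold, 43.8-fold and 31.5-fold. The Egr3 size depended on the probe set. Its log2 change with stimulation was 6.97 on the brightest, chosen over all 8 arrays with the stimulated ones included. It was 3.51 when its 2 probe sets were averaged. Nab2 fell with dorsomorphin whether or not the cells had been stimulated, by 4.70-fold and 3.72-fold, while Nab1 passed the test in no comparison.

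The cells were primary CD4+ T cells of the BALB/c strain in 4 groups of 2 arrays each. The stimulated and dorsomorphin-treated group had anti-CD3 and anti-CD28 antibody for 1 h and then 4 µM dorsomorphin (DM) for 6 h. The stimulated group had the same antibodies and then DMSO, the dorsomorphin group was left unstimulated and had 4 µM dorsomorphin, and the control group had DMSO alone. All groups had the 6 h with drug or DMSO. Whether the antibodies stayed on the cells during those 6 h is not stated. Dorsomorphin is a small-molecule inhibitor of type I BMP receptors that also inhibits AMP-activated protein kinase. The labels do not say how the cells were purified, how many mice gave them, or whether the numbered replicates were separate cultures, so every p-value below measures array-to-array spread within a group and nothing wider, and that spread may be technical.

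Egr1, Egr2 and Egr3 are zinc finger transcription factors that bind a GC-rich element. In T cells they are immediate early genes, switched on within the first hours of receptor signalling through the Ras and ERK route, which acts on serum response factor and its ternary complex partners of the Ets family, and through calcium and NFAT. Egr1 is best known as an activator of cytokine genes, whereas Egr2 and Egr3 also restrain T-cell activation and are needed for anergy. Nab1 and Nab2 bind a shared repression domain of these 3 factors and recruit a chromatin-remodelling complex that turns their targets off, and Nab2 is itself an Egr target in several cell types, which makes it a feedback inhibitor.

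Promoter windows of Egr2, Nab1 and Nab2 are shown, the 3 members with windows in the set examined, and none was examined for Egr1 or Egr3. These 3 members did not move alike, and their windows carry different elements. RefSeq windows of assembly GRCm38.p6, running from 250 bases before to 50 bases after an annotated gene start, held 5 starts for Egr2, 3 of them with overlapping windows, and 1 each for Nab1 and Nab2. The first Egr2 window is chr10:67537619-67537918 on the plus strand, and the second, around an upstream start, is chr10:67537316-67537615 on the plus strand. The Nab1 window is chr1:52500399-52500698 and the Nab2 window is chr10:127666654-127666953, both on the minus strand. Each is written 5′ to 3′ on the strand of its gene. Capitals mark matches on either strand to the CArG box of serum response factor, to the Egr motif GCGNGGGCG, to the Ets motif CCGGAA and to the cyclic AMP response element core TGACG.
Egr2, downstream start: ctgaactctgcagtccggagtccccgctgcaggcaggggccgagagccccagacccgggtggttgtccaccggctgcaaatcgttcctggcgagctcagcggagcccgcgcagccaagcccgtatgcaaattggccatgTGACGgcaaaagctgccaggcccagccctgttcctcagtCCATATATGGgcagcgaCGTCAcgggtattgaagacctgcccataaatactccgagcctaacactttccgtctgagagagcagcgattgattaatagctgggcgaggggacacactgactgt
Egr2, upstream start: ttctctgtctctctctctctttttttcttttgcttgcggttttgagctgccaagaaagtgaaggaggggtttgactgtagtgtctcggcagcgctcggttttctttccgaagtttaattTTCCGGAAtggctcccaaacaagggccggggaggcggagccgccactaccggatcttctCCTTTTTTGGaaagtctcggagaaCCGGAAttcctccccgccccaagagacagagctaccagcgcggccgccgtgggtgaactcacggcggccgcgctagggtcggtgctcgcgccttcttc
Nab1: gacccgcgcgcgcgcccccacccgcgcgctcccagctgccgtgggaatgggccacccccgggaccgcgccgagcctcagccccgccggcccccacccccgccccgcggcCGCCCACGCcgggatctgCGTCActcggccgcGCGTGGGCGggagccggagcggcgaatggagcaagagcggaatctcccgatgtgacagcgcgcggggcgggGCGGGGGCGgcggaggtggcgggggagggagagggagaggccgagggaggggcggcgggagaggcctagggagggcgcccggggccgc
Nab2: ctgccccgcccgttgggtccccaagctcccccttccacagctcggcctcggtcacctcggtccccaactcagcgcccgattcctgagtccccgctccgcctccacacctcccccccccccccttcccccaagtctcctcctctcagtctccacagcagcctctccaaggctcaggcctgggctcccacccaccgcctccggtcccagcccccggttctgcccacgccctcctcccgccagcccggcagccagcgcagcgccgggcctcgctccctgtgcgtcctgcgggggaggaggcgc
Both Egr2 windows shown held a CArG box beginning at position -72 from the start, an element present in 1.63% of all 32851 windows. The downstream window added 2 TGACG matches, where 20.8% of windows hold any, and the upstream window added 3 Ets matches, the pair nearest its 5′ end overlapping each other. The Ets motif was present in 14.9% of windows. Of the other 3 Egr2 windows, a pair overlaps the downstream window and holds the same matches, and the one furthest upstream, chr10:67535249-67535548, held none of the 4 motifs. Nab1 had no CArG box but 3 matches to the Egr motif, which 5.55% of windows hold, and 1 TGACG match in a window of 81.7% G and C. Nab2, at 74% G and C, held none of the 4 motifs. A match of letters is a description of the window and not a binding site, and the absence of a match speaks only of these 300 bases.

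Signals are given as the deposited linear intensities, which had been scaled so that the trimmed mean was 500 on every array, and changes are given as log2 differences with their standard errors. Pairs of arrays of the same group correlated at r = 0.937 to 0.952 over the tested genes and pairs from different groups at 0.841 to 0.955, so the groups were not all further apart than their replicates. Of 10 listed CD4 T-cell markers, 9 were on the table and all 9 lay above the working floor of 37.3. Their summed signal was 36321.9 to 44295 with stimulation and dorsomorphin, 55678 to 56210.6 with stimulation, 25769.7 to 34155 with dorsomorphin and 80073 to 80260.5 in control cells. The summed signal of 10 myeloid and dendritic-cell markers was 1029 to 1396, 834 to 1391 and 1299 to 1405 in the same 3 treated groups, against 2897 to 3923 in control cells. The 6 B-cell markers on the table summed to 474 to 494, 227 to 370.2 and 295 to 352 in those groups, against 527 to 608 in control cells. The 3′ minus 5′ log2 signal of the actin control probe sets, a sign of RNA quality, was 0.33 on both stimulated arrays and 0.47 to 0.80 on the others. The same measure for Gapdh did not set the stimulated arrays apart, at -0.49 and -0.32 there and -0.59 to -0.18 on the others. No listed marker had a signal of 0, and in bulk RNA fewer cells of a type and less RNA per cell cannot be told apart. The part these shifts had in the results below was not tested.

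**Figure D1:**
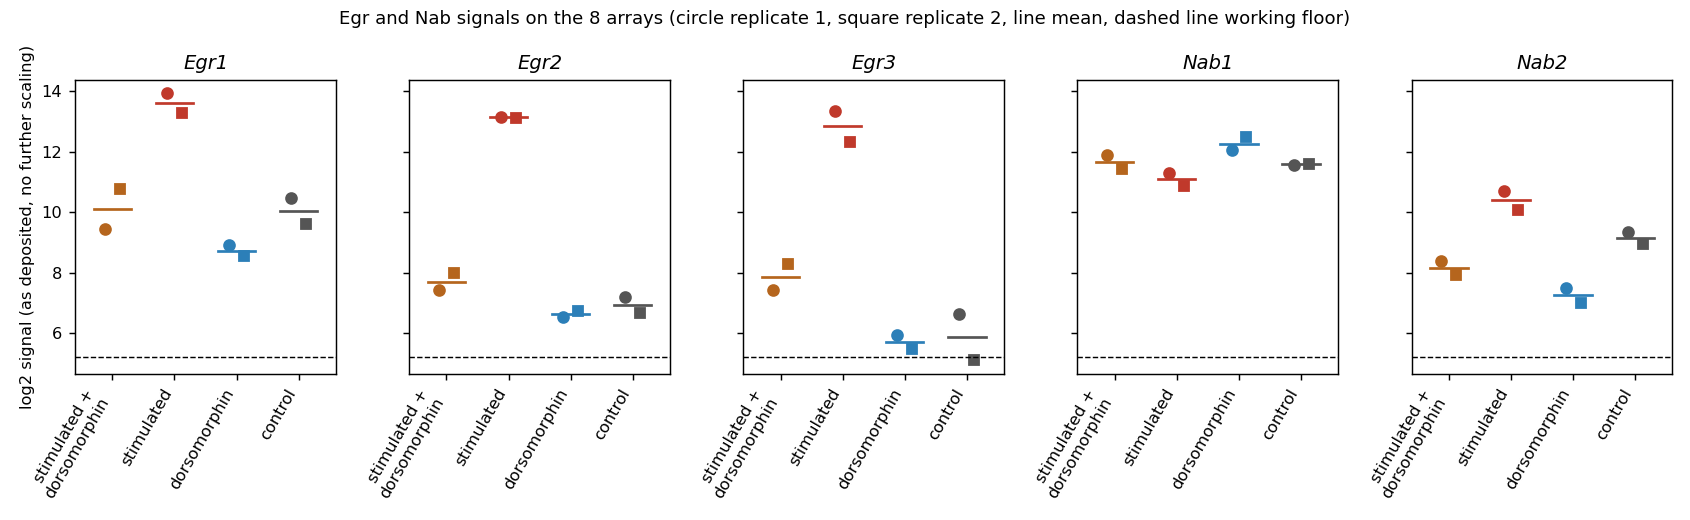
Log2 signal of each member on the 8 arrays (vertical axis, as deposited) in the 4 groups along the horizontal axis, with circles for replicate 1, squares for replicate 2, a line for the group mean and a dashed line for the working floor. Egr1, Egr2 and Egr3 stand far above the other groups in stimulated cells, Nab2 is lowest in both groups given dorsomorphin, and Nab1 spans a narrow range.

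The first comparison asked what stimulation did to the family without dorsomorphin. Egr2, which limits effector responses in T cells, had signals of 9162 and 8964 in stimulated cells, against 148 and 102 in control cells. Egr3, which acts redundantly with Egr2 in T cells, had 10408 and 5159 in stimulated cells, against 99.5 and 34.1 in control cells. Both genes were low at rest and high on both stimulated arrays, with no overlap between the groups, and 1 control array of Egr3 lay under the floor. Egr2 rose by 6.20 ± 0.30 (SE) on the log2 scale (limma adjusted p = 0.00497, n = 2 per group) and was the 10th most raised of the 13984 genes. Egr3 rose by 6.97 ± 0.64 (limma adjusted p = 0.00824) and was the 7th, on a probe set chosen with the stimulated arrays counted in. Egr1, the family's best studied activator, had signals of 15733 and 9894 in stimulated cells, against 1416 and 777 in control cells. Those groups did not overlap either, and Egr1 rose by 3.57 ± 0.55 (limma adjusted p = 0.0133), at rank 113.

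The Nab genes did not follow them past the threshold. Nab2 had signals of 1674 and 1078 in stimulated cells, against 651 and 490.0 in control cells. Its groups did not overlap, yet its difference of 1.25 ± 0.35 just missed the threshold (limma adjusted p = 0.0522, 95% interval 0.38 to 2.12). The call for Nab2 turned on the processing, since it passed after median centring (1.61, adjusted p = 0.0189), quantile normalization (1.52, adjusted p = 0.0181) and cyclic loess (1.57, adjusted p = 0.0160). It also passed with the offset of 16, the 60th percentile filter, trend and robust moderation and the replicate block, 7 of 10 alternatives besides leave-outs. Over every alternative its adjusted p ran between 0.0149 and 0.223. Nab1, with signals of 2516 and 1888 in stimulated cells, against 3048 and 3077 in control cells, differed by -0.49 (95% interval -1.21 to 0.22, limma adjusted p = 0.275).

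In all, 3 of the 5 members rose with stimulation and none fell, where 8.99% of all tested genes rose and 14.4% fell. The median log2 change of the 5 was 3.57, beside -0.27 over all tested genes. That all-gene median was 0.10 after median centring, 0.00 after cyclic loess and -0.03 after quantile normalization, and the 3 members stayed called under each. Leaving out either control array left no gene of the whole array past limma's threshold here (3795 and 3813 had an unadjusted p under 0.05), and the members' adjusted p was then 0.0653 for Egr1 and 0.0603 for Egr2 and Egr3 without control replicate 1, and was 0.0897 for Egr1 and 0.0784 for Egr2 and Egr3 without control replicate 2. Egr1 also missed it without stimulated replicate 2 (3.91, adjusted p = 0.0511). The directions held in every leave-out, with log2 changes from 3.14 to 4.01 for Egr1, 5.94 to 6.47 for Egr2 and 6.20 to 7.75 for Egr3, whose extremes came without control replicate 2 and without control replicate 1. Of the myeloid and dendritic-cell markers 3 of 10 fell with stimulation, of the CD4 T-cell markers 1 of 9 fell, and of the B-cell markers 1 of 6 fell.

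Dorsomorphin given after stimulation was the second comparison, and here 4 of the 5 members fell. Egr2 had signals of 170.1 and 251 in stimulated cells given dorsomorphin, against 9162 and 8964 in stimulated cells. Egr3 had 173 and 314 with dorsomorphin, against 10408 and 5159 without it. The highest signal of either gene under the drug lay far below its lowest signal without it. Egr2 fell by 5.45 ± 0.30 on the log2 scale (limma adjusted p = 0.00491) and stood 25th from the lowest of all tested genes, and Egr3 fell by 4.98 ± 0.64 (limma adjusted p = 0.00788) and stood 35th. Egr1 had signals of 691 and 1739 with dorsomorphin, against 15733 and 9894 without it. Its arrays under the drug differed more from each other than did those of Egr2, but the groups did not overlap, and Egr1 fell by 3.51 ± 0.55 (limma adjusted p = 0.0117).

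Nab2, the corepressor that Egr factors are known to induce, fell with them. It had signals of 333 and 245 in stimulated cells given dorsomorphin, against 1674 and 1078 in stimulated cells, a fall of 2.23 ± 0.35 on the log2 scale (limma adjusted p = 0.0118). Nab1 had 3763 and 2757 with dorsomorphin, against 2516 and 1888 without it. Here too the groups did not overlap, in the other direction, and the difference of 0.56 did not pass (95% interval -0.15 to 1.28, limma adjusted p = 0.224). Of all tested genes, 12.4% fell and 9.71% rose in this comparison, with a median log2 change of 0.075. Each of the 4 calls held when any 1 of the 8 arrays was left out, with log2 changes from -4.17 to -2.84 for Egr1, -5.74 to -5.17 for Egr2, -5.48 to -4.47 for Egr3 and -2.55 to -1.92 for Nab2. The Egr1 extremes came without replicate 2 and without replicate 1 of stimulated cells given dorsomorphin. All 4 were lost when the fit was given only the 4 arrays compared (adjusted p 0.0605 to 0.0665), a fit in which no gene passed and 4041 had an unadjusted p under 0.05. None of the 10 myeloid and dendritic-cell markers passed in this comparison, and of the CD4 T-cell markers 2 of 9 fell and 1 rose. Of the B-cell markers 2 of 6 rose, with a list median of 0.76 beside 0.075 for all tested genes, and their part in the result was not tested.

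**Figure D2:**
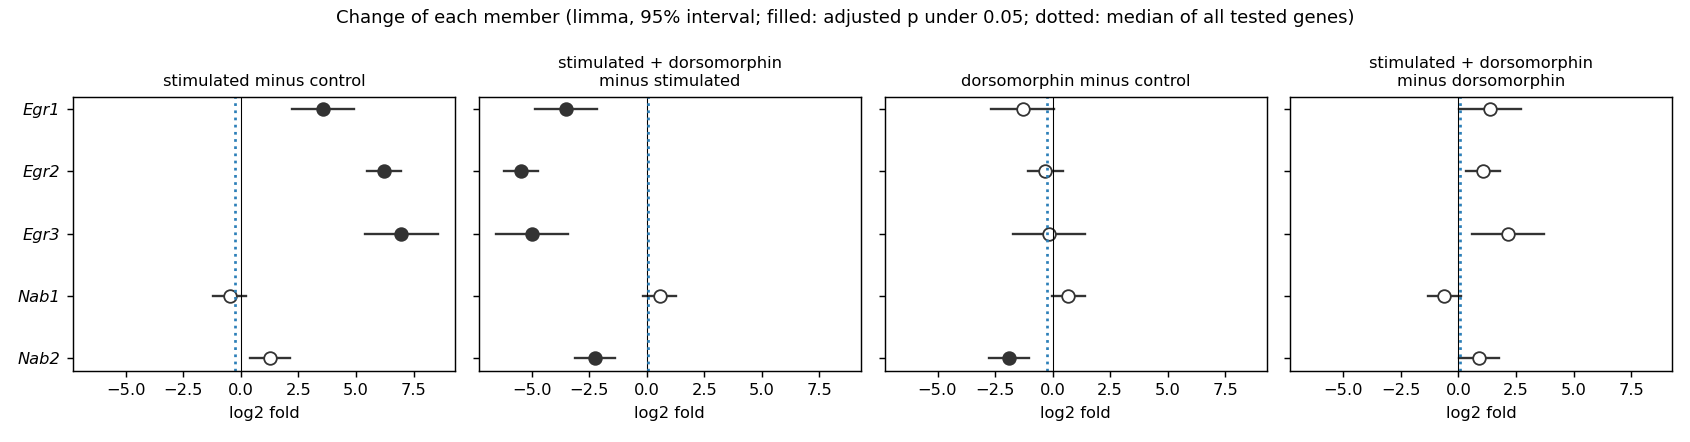
Log2 change of each member (horizontal axis) with its 95% interval from limma, in 4 comparisons named above the panels, where filled points have an adjusted p under 0.05 and the dotted line is the median of all tested genes. Egr1, Egr2 and Egr3 are filled for stimulation and for dorsomorphin in stimulated cells, and Nab2 is filled in both dorsomorphin panels.

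In cells that had not been stimulated, Nab2 was the 1 member past the threshold with dorsomorphin. Nab2 had signals of 182 and 127 in dorsomorphin cells, against 651 and 490.0 in control cells. The groups did not overlap, and the fall of 1.89 ± 0.35 on the log2 scale passed the test (limma adjusted p = 0.0277). In this comparison 11.1% of all tested genes fell and 1.92% rose, with a median log2 change of -0.24. The Nab2 call depended on every array of the comparison: the adjusted p was 0.142 without control replicate 1, 0.126 without control replicate 2, 0.0503 without dorsomorphin replicate 1 and 0.129 without dorsomorphin replicate 2. The log2 change lay between -2.15 and -1.64 in all of these. The call was also lost with no filter on low signal (adjusted p = 0.0514) and with only the 4 arrays compared in the fit (adjusted p = 0.0546). Beside it, 3 of the 10 myeloid and dendritic-cell markers and 6 of the 9 CD4 T-cell markers fell in the same comparison, as did 1 of the 6 B-cell markers, and the part of cell makeup in the Nab2 value was not tested.

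None of the 3 Egr genes passed in unstimulated cells. Egr1 had signals of 486 and 371 in dorsomorphin cells, against 1416 and 777 in control cells. Every dorsomorphin array lay below every control array, but the difference of -1.30 ± 0.55 did not pass (95% interval -2.66 to 0.05, limma adjusted p = 0.171). Egr2 had 91.4 and 107 with dorsomorphin, against 148 and 102 in control cells, and its groups overlapped (-0.32, 95% interval -1.06 to 0.43, limma adjusted p = 0.533). Egr3 had 60.6 and 44.2 with dorsomorphin, against 99.5 and 34.1 in control cells. The control arrays enclosed both dorsomorphin arrays, and the difference of -0.17 had a wide interval (-1.74 to 1.40, limma adjusted p = 0.890). Nab1 had 4251 and 5740.2 with dorsomorphin, against 3048 and 3077 in control cells. Its groups did not overlap and the difference of 0.69 did not pass (95% interval -0.02 to 1.40, limma adjusted p = 0.171).

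What stimulation left behind under dorsomorphin was read by setting stimulated cells given the drug against unstimulated cells given the drug. No gene passed limma's adjusted threshold in this comparison, 0% of all tested genes in either direction, so no member did, while 539 genes had an unadjusted p under 0.05. Egr3 had signals of 173 and 314 with stimulation under dorsomorphin, against 60.6 and 44.2 under dorsomorphin alone, a difference of 2.17 ± 0.64 (limma adjusted p = 0.953, unadjusted p = 0.0149). Egr2 had 170.1 and 251, against 91.4 and 107 under dorsomorphin alone, a difference of 1.06 ± 0.30 (limma adjusted p = 0.917, unadjusted p = 0.0131). The size depended on the probe set, since the other Egr2 probe set gave 2.68 ± 0.58 (limma adjusted p = 0.675, fit over all probe sets). Egr1 had 691 and 1739, against 486 and 371 under dorsomorphin alone, a difference of 1.37 ± 0.55 (limma adjusted p = 1.00, unadjusted p = 0.0478). Together with Nab2, at 333 and 245 against 182 and 127 (0.91 ± 0.35, limma adjusted p = 1.00, unadjusted p = 0.0426), 4 of the 5 members lay higher with no overlap, where 17.3% of all tested genes did. The same 4 had an unadjusted p under 0.05 in the higher direction, where 2.85% of tested genes did. Egr3 entered these counts on its brightest probe set, which was chosen with the stimulated arrays included. Its other probe set gave 0.097 ± 0.61 in a fit over all probe sets. Signals there were 155 and 77.1 with stimulation under dorsomorphin, against 174 and 59.97 under dorsomorphin alone, and the groups overlapped. Nab1 had 3763 and 2757, against 4251 and 5740.2, and differed by -0.62 ± 0.29 (limma adjusted p = 1.00, unadjusted p = 0.0788).

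Against control cells, stimulated cells given dorsomorphin held no member past the threshold, where 0.915% of all tested genes rose and 6.31% fell. Egr1 differed from its resting level by 0.064 (95% interval -1.29 to 1.41, limma adjusted p = 0.957). Egr3 differed by 1.998 ± 0.64 (limma adjusted p = 0.117), Egr2 by 0.75 ± 0.30 (limma adjusted p = 0.188) and Nab2 by -0.98 ± 0.35 (limma adjusted p = 0.147), and these 3 had unadjusted p-values of 0.0207, 0.0494 and 0.0323. Nab1 differed by 0.073 (95% interval -0.64 to 0.79). From highest to lowest mean, Egr1, Egr2 and Egr3 thus ran from stimulated cells, through stimulated cells given dorsomorphin and control cells, to dorsomorphin cells, and only the step below stimulated cells was larger than the spread by limma's adjusted p. Nab2 ran from stimulated to control cells, then stimulated cells given dorsomorphin, then dorsomorphin cells, and no neighbouring step passed. Nab1 ran the other way, from dorsomorphin cells through stimulated cells given dorsomorphin and control cells to stimulated cells, again with no neighbouring step past the threshold.

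Whether dorsomorphin acted more strongly in stimulated than in unstimulated cells was tested by the interaction, the difference between its effects in the 2 states. Egr2 gave -5.14 ± 0.43 on the log2 scale (limma adjusted p = 0.0492) and was 1 of 12 genes past the threshold, where 0.0501% of all tested genes were lower and 0.0358% higher. Egr3 gave -4.81 ± 0.90 (limma adjusted p = 0.0659) and Egr1 -2.20 ± 0.78 (limma adjusted p = 0.148), neither past it. From the control signals of Egr2 and Egr3, a fall as large as in stimulated cells would end under the floor, where it could not be read reliably. For Nab2 the interaction was -0.34 (95% interval -1.57 to 0.89, limma adjusted p = 0.707), an interval that holds 0 and a difference of more than 1 log2 unit, and for Nab1 it was -0.13 ± 0.41 (limma adjusted p = 0.876). The Egr2 call was marginal: in a fit over all 32056 probe sets that passed the filter its adjusted p was 0.0961, and leaving out 1 array kept it only when that array was stimulated replicate 1 (adjusted p = 0.0353). Over every alternative of the gene fit the adjusted p ran between 0.00146 and 0.221, with the log2 difference between -5.61 and -4.32.

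The members had 9 probe sets among them, and the others bore on how far each gene's value could be read. A second Egr2 probe set had signals of 158 and 353 with stimulation and dorsomorphin, 7160.2 and 9376 with stimulation, 53.5 and 25.4 with dorsomorphin and 156 and 82.8 in control cells. It followed the brightest one with stimulation (6.17 ± 0.58, limma adjusted p = 0.0150) and with dorsomorphin in stimulated cells (-5.12 ± 0.58, limma adjusted p = 0.00876). In unstimulated cells its difference of -1.62 did not pass (limma adjusted p = 0.140). Its interaction of -3.49 ± 0.82 was smaller than that of the brightest probe set and did not pass either (limma adjusted p = 0.121). A second Egr3 probe set behaved otherwise, with 155 and 77.1 with stimulation and dorsomorphin, 181 and 139 with stimulation, 174 and 59.97 with dorsomorphin and 192 and 123 in control cells. All 4 groups overlapped on it, and the stimulation difference was 0.048 (95% interval -1.46 to 1.55, limma adjusted p = 0.966). The Egr3 result therefore rests on 1 of its 2 probe sets. That set was the brighter with stimulation and with stimulation and dorsomorphin (mean log2 12.84 and 7.86, against 7.31 and 6.77). It was the dimmer in control and dorsomorphin cells (5.86 and 5.69, against 7.26 and 6.67). The choice thus used the groups where it was high, and the fold, rank and p-value of Egr3 lean toward a rise. When the probe sets of a gene were averaged instead, the stimulation change of Egr3 was 3.51 and its change with dorsomorphin after stimulation was -2.76, and both stayed past the threshold.

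**Figure D3:**
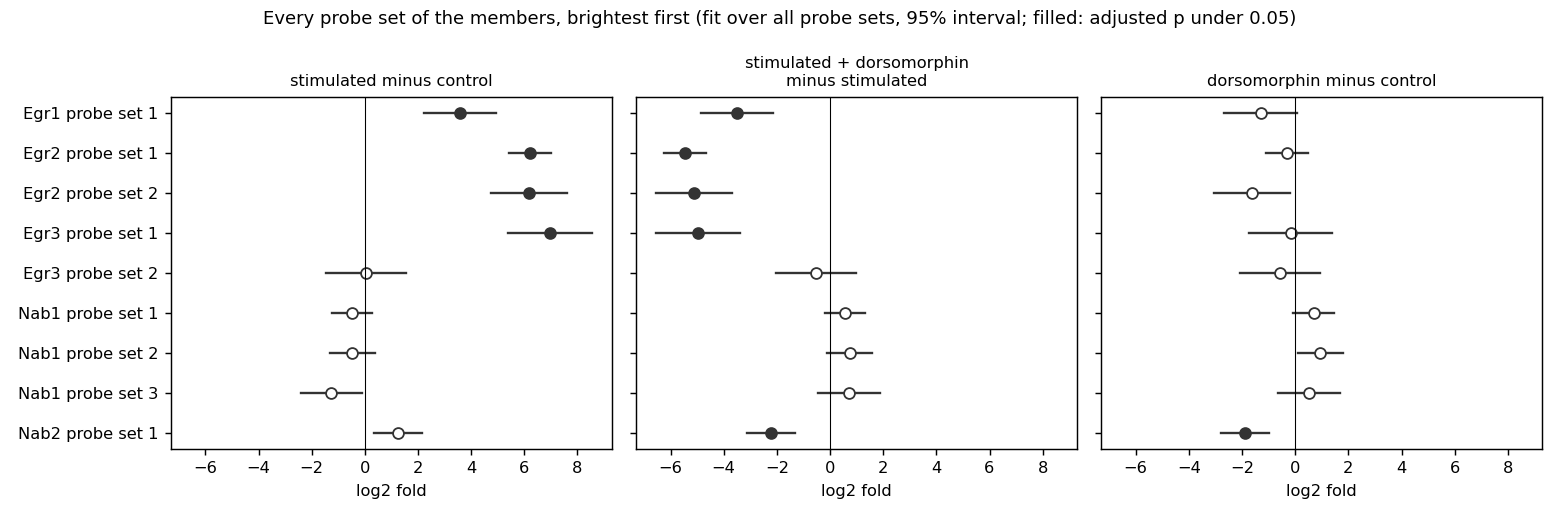
Log2 change (horizontal axis) with its 95% interval for each of the 9 probe sets of the members, brightest first within a gene, in 3 comparisons, from a limma fit over all probe sets that passed the filter, where filled points have an adjusted p under 0.05. Both Egr2 probe sets move alike with stimulation, and the second Egr3 probe set sits near 0.

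Nab1 was read by 3 probe sets, which took the same side in each main comparison without passing. The second had signals of 802 and 682 with stimulation and dorsomorphin, 535 and 366 with stimulation, 927 and 1501 with dorsomorphin and 591 and 639.7 in control cells. The third and dimmest had 117 and 102, 95.4 and 46.6, 163 and 319, and 147.5 and 172 in the same order of groups. All 3 lay lower in stimulated than in control cells (-0.49, -0.48 and -1.26) and higher with dorsomorphin than without it in stimulated cells (0.56, 0.74 and 0.71) and in unstimulated cells (0.69, 0.94 and 0.52). Probe sets of a gene are read from the same RNA and are not replicates. Egr4, the family member that lacks the Nab-binding repression domain, had signals of 69.7 and 15.4 with stimulation and dorsomorphin, 174 and 15.0 with stimulation, 18.4 and 19.0 with dorsomorphin and 60.8 and 24.2 in control cells. Most of these lay under the floor, and Egr4 passed no comparison.

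Across the 8 arrays the log2 signals of Egr2 and Egr3 correlated at r = 0.978, those of Egr1 and Nab2 at 0.889 and those of Egr1 and Nab1 at -0.857. These are descriptions over 8 arrays that share their 4 groups. The genes whose log2 signal followed each member most closely were ranked by Pearson's r over the same arrays, with symbols of clones and unnamed genes left out. Pearson's r takes no account of the size of a change. For Egr1 they were Tnfrsf9, the costimulatory receptor 4-1BB (0.995), Il12rb1, a chain of the interleukin-12 receptor (0.993), and Nfix (0.990). For Egr2 they were Gzmb, the cytotoxic protease granzyme B (0.997), Spry1, an inhibitor of Ras and ERK signalling (0.997), and Hmgxb3 (0.996). Hmgxb3 changed by only 0.52 with stimulation and -0.49 with dorsomorphin after it, where Egr2 changed by 6.20 and -5.45. Egr3 was followed most closely by Sqle, an enzyme of cholesterol synthesis (0.995), Rgs1, a regulator of G-protein signalling (0.993), and Angptl4 (0.987). Nab1 was followed by Tada2b (0.962), Zfr (0.956) and Hnrnpf (0.955), and Nab2 by Abtb2 (0.986), Fscn1 (0.984) and Gemin5 (0.983). No gene was among the closest 3 of more than 1 member.

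Genes of the signalling route known to act on Egr promoters were counted next, from a list of serum response factor, its partners and the Ras to ERK kinases, of which 11 were tested. With stimulation 2 of 11 fell and none rose, where 14.4% of all tested genes fell, with a list median of -0.41 beside -0.27 for all tested genes. The count that fell ran between 0 and 5 over the alternatives. Mrtfa, a coactivator of serum response factor, fell by 2.55 ± 0.46, and Sos1, a Ras exchange factor, fell by 0.96 ± 0.23 (limma adjusted p = 0.0174 and 0.0326). Neither call held without control replicate 1, control replicate 2 or stimulated replicate 2. Over all 8 leave-outs the Mrtfa call held in 5 and the Sos1 call in 2. In stimulated cells given dorsomorphin 2 of 11 fell, where 12.4% of all tested genes did, with a list median of -0.14 beside 0.075. Map2k2, the ERK kinase MEK2, had signals of 701 and 716 with stimulation and dorsomorphin, against 2438 and 2709 with stimulation, and fell by 1.86 ± 0.20 (limma adjusted p = 0.00620). Srf itself had 365 and 398, against 1207 and 900.3 with stimulation, and fell by 1.45 ± 0.24 (limma adjusted p = 0.0131). The Srf call was lost without replicate 1 of stimulated cells given dorsomorphin (adjusted p = 0.0638). It was also lost in 2 of the 10 alternatives besides leave-outs, over which the change ran from -1.71 to -0.73 and the adjusted p reached 0.114. Without stimulation 4 of 11 fell with dorsomorphin, where 11.1% of all tested genes did, namely Elk3, Map2k2, Braf and Sos1, with log2 changes of -2.38, -1.75, -1.08 and -1.06 and a list median of -0.96 beside -0.24. The Braf and Sos1 changes were 0.15 and 1.64, in the other direction, when probe sets were averaged. When control replicate 1, control replicate 2 or dorsomorphin replicate 2 was left out, no gene of the list passed in unstimulated cells, and 2 or 3 did when any other array was left out. The Braf and Sos1 calls were lost in all 8 leave-outs, with adjusted p of 0.0511 and 0.0525 at the lowest.

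Other immediate early genes did not move as a block at this time. Of 16 tested, 3 rose and 2 fell with stimulation, where 8.99% of all tested genes rose and 14.4% fell, with a list median of 0.37 beside -0.27 for all tested genes. Nr4a1, an orphan nuclear receptor, rose by 3.90 ± 0.69, Atf3, a stress-induced bZIP factor, by 3.58 ± 0.52 and Dusp2, a nuclear ERK phosphatase, by 1.84 ± 0.23, while Klf6 fell by 2.65 ± 0.50 and Btg2, an antiproliferative gene, fell by 2.35 ± 0.33 (limma adjusted p 0.0102 to 0.0194). No gene of the list passed when either control array was left out, and only 1 rose without stimulated replicate 2. The AP-1 gene Fos had signals of 1998 and 1281 in stimulated cells, against 1233 and 385 in control cells, and did not pass (1.22, limma adjusted p = 0.372), nor did Fosb or Junb. With dorsomorphin in stimulated cells 6 of 16 fell and 1 rose, where 12.4% of all tested genes fell and 9.71% rose, with a list median of -0.80 beside 0.075. The largest changes were a fall of 3.72 ± 0.52 for Atf3, a rise of 3.18 ± 0.50 for Klf6, a fall of 3.05 ± 0.69 for Nr4a1 and a fall of 2.74 ± 0.23 for Dusp2 (limma adjusted p 0.00576 to 0.0299). The count of falling genes was between 2 and 4 when 1 array was left out, with Nr4a1 lost in 6 of the 8 leave-outs. Klf6 was lost without replicate 1 of stimulated cells given dorsomorphin (adjusted p = 0.0594). In unstimulated cells Dusp2 alone passed with dorsomorphin, at -1.52, with a list median of -0.50 beside -0.24. That call was lost without control replicate 1, control replicate 2 or dorsomorphin replicate 2.

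Genes linked to Egr factors in T cells formed the last list, 26 genes that include cytokines, surface molecules and anergy genes and that were all tested. Stimulation raised 10 and lowered 3 of them, where 8.99% of all tested genes rose and 14.4% fell, with a list median of 0.99 beside -0.27 for all tested genes. Il2, the cytokine interleukin-2, had signals of 6414 and 18509 in stimulated cells, against 30.5 and 80.8 in control cells, and rose by 7.78 ± 1.05 (limma adjusted p = 0.0113). Ccl1, a chemokine, had 3514 and 8675 in stimulated cells, against 12.7 and 34.3 in control cells, both under the floor, and was at least 148-fold higher (limma adjusted p = 0.00851). Sema7a, a membrane-bound semaphorin, rose by 5.84 ± 0.79, and Tnf, the cytokine tumour necrosis factor, rose by 4.89 ± 0.60 (limma adjusted p = 0.0113 and 0.00950). The 3 that fell were Dgka, Ndrg1 and Nrp1, by 2.48, 1.98 and 1.54 on the log2 scale. Dgka, a diacylglycerol kinase of the anergy programme, and Ndrg1, an anergy factor, are among the genes that Egr2 is known to raise in anergic T cells. The count of rising genes was 0 when either control array was left out and 4 without stimulated replicate 2, and the count of falling genes was 0 when any of these 3 arrays was left out.

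Dorsomorphin in stimulated cells lowered 11 of the 26 and raised 1, where 12.4% of all tested genes fell and 9.71% rose, with a list median of -1.27 beside 0.075. Il2 had signals of 18.8 and 93.7 in stimulated cells given dorsomorphin, against 6414 and 18509 in stimulated cells, and fell by 8.02 ± 1.05 (limma adjusted p = 0.00817). Replicate 1 under dorsomorphin lay under the floor, as did control replicate 1, so the size is uncertain, and it ran from -9.18 to -6.86 when 1 array was left out. Crtam, a surface molecule of activated T cells, had 15.1 and 12.1, both under the floor, against 3914 and 1298, and was at least 60.5-fold lower (limma adjusted p = 0.00576). Ccl1 fell by 6.38 ± 0.87 and Sema7a fell by 4.72 ± 0.79, and the gene that rose was Ndrg1, by 1.61 ± 0.38 (limma adjusted p 0.00862, 0.0135 and 0.0342). The anergy ligase genes Cblb and Itch did not pass here (0.64, 95% interval 0.01 to 1.26, and 0.67, 95% interval 0.15 to 1.18). The count of falling genes was 6 without stimulated replicate 2, where Sema7a was lost (adjusted p = 0.0620), and 7 without replicate 1 of stimulated cells given dorsomorphin. In unstimulated cells 5 of 26 fell with dorsomorphin and none rose, where 11.1% of all tested genes fell, with a list median of -0.54 beside -0.24. Crtam was at least 2.24-fold lower, Id3, an inhibitor of E proteins, fell by 2.82 ± 0.33, Rnf128, the anergy ligase GRAIL, by 1.70 ± 0.25 and Nrp1 by 1.34 ± 0.30 (limma adjusted p 0.0121 to 0.0415). No gene of the list passed in unstimulated cells when either control array was left out, 1 did without dorsomorphin replicate 2, and 3 did without dorsomorphin replicate 1 or when either stimulated array was left out.

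**Figure D4:**
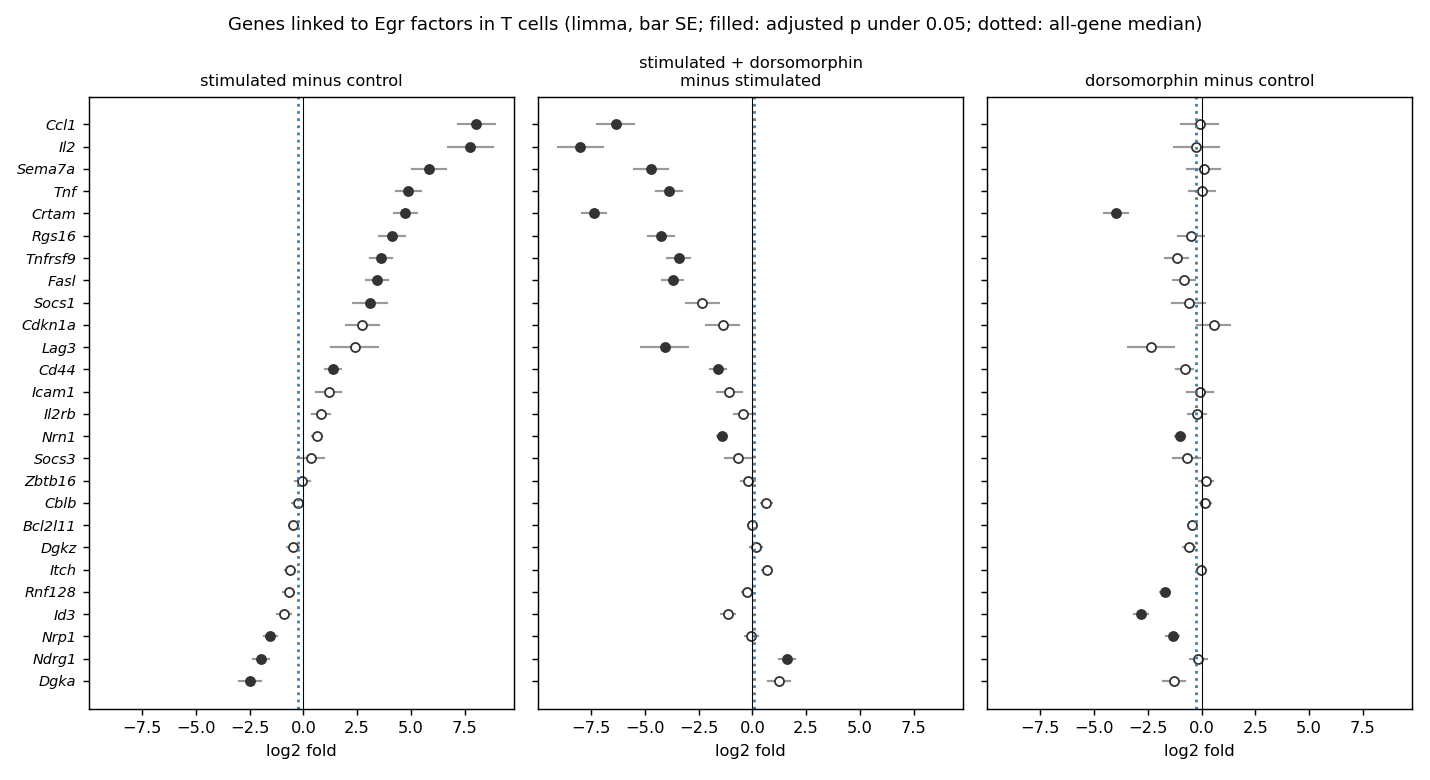
Log2 change (horizontal axis, bars are the standard error) of the 26 genes linked to Egr factors in 3 comparisons, ordered by their change with stimulation, where filled points have an adjusted p under 0.05 and the dotted line is the median of all tested genes. Ccl1, Il2, Sema7a and Tnf lie far to the right with stimulation and far to the left with dorsomorphin after it. Signals under the floor are plotted as measured, so the points of genes with arrays there, Ccl1, Crtam, Lag3 and Il2 among them, are not bounds.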

How the data were processed

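RNA from 8 samples of mouse CD4+ T cells was hybridised to Affymetrix arrays of 45101 probe sets. The deposited table holds 1 linear intensity per probe set and array. The submitters' processing notes name RMA and affy without a version, whereas the deposited intensity values are linear and share a trimmed mean of 500 with 2% left out at each end. They were taken to log2 with no further normalization, so a shift of most genes one way would be scaled away in part. Symbols came from the platform annotation (34958 probe sets with 1 symbol, 932 with several, 9160 with none, 64 controls). Per gene the brightest probe set was kept, and genes above the 40th percentile (log2 5.22) on at least 2 arrays were tested. limma 3.58.1 in R 4.3.3 was fitted to the 4 groups of 2 arrays (4 residual degrees of freedom), with Benjamini-Hochberg adjustment over 13984 genes and a threshold of 0.05, and it was tested on simulated data. The number of arrays limits the precision. "At least" folds set the dim group at the floor signal. The context genes named are up to 4 per list past the threshold by size of change, beside members of the Egr family and the 3 genes most like each. Fos, Fosb, Junb, Dusp2 with stimulation, Dgka, Ndrg1, Nrp1, Cblb, Itch and Alas2 were named after their values were seen. Some genes of the signalling route are not reported here. The members and lists were chosen with earlier results of these data known. Alternatives covered scaling, offset, filters, probe-set averaging, trend and robust moderation, replicate block, the arrays fitted and leaving out each array.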

Additional observations from a re-analysis of the deposited data

Results flagged for a closer look

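Dorsomorphin changed Egr2 by different amounts in the 2 activation states by the test of the difference itself, a marginal call that most alternatives did not keep. The drug's log2 effect was -5.45 in stimulated cells and -0.32 in unstimulated cells, a difference of -5.14 ± 0.43 (limma adjusted p = 0.0492). Egr2 started from signals of 9162 and 8964 in stimulated cells, and from 148 and 102 in control cells. From the control signals, a fall of 5.45 would end far under the working floor of 37.3. Signals under the floor were still measured and entered the fit, but a fall of that size could not have been read reliably in unstimulated cells. The low start alone limits what this difference can mean. Egr3 had a difference of similar size, -4.81, that did not pass (limma adjusted p = 0.0659). The Egr2 difference stayed between -5.61 and -4.32 under the alternatives to scaling, filter, probe-set averaging and model, with adjusted p between 0.00146 and 0.0878. The call was lost after median centring, with no filter, with averaged probe sets and with the replicate block. It was also lost in every leave-out but that of stimulated replicate 1, as given above. Read from the second Egr2 probe set alone, the difference was smaller, at -3.49 ± 0.82, and did not pass (limma adjusted p = 0.121, fit over all probe sets).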

How the results depend on the processing

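Each comparison was repeated under the alternatives named in the processing account, and the number of members called was 3 for stimulation (4, with Nab2, under 7 of 10 alternatives besides leave-outs), 4 for dorsomorphin in stimulated cells, 1 in unstimulated cells, 0 for stimulation under dorsomorphin, 0 for stimulated cells given dorsomorphin against control and 1 for the interaction. Leaving out 1 array gave 0 to 3, 4 to 4, 0 to 1, 0 to 0, 0 to 0 and 0 to 1. With only the arrays compared in the fit, dorsomorphin in stimulated cells and in unstimulated cells each called 0, and with no filter the unstimulated comparison called 0. Against control, trend and robust moderation called 1 (Egr3, adjusted p = 0.0331). The interaction called 0 after median centring, with no filter and with averaged probe sets, 2 with an offset of 16 or the 60th percentile filter and 3 with trend and robust moderation. The replicate numbers of the labels have no stated meaning, and deviations of same-numbered arrays correlated at 0.07 to 0.18 over the 6 pairs of groups, all positive and 4 of them over 0.1. The median signal was also higher for replicate 1 in every group. Replicate 1 of the dorsomorphin group and replicate 1 of stimulated cells given dorsomorphin correlated at r = 0.955, above every pair within a group (at most 0.952). The red-cell gene Alas2 was higher on replicate 2 in every group, in control cells at 541 against 3.37, the latter under the floor. These are signs of pairing from the data, although the deviations do not reach 0.1 in every pair. The design does not state pairing, so the numbers were not used as pairs in the main fit. A fit with the replicate block called 1 member against control (Nab2, -0.98, adjusted p = 0.0439), 4 with stimulation and 0 in the interaction (Egr2, adjusted p = 0.0548). Among the members, the sign changed for 4 values that had not passed. Egr3 with dorsomorphin in unstimulated cells was 0.048 after median centring, 0.10 after cyclic loess and 0.0061 after quantile normalization (-0.94 to 0.60 with 1 array left out). Nab1 in stimulated cells given dorsomorphin against control was -0.00890, -0.00480 and -0.068 after cyclic loess, quantile normalization and averaging (-0.15 to 0.30), Egr1 there was -0.60 to 0.73 and the Nab1 interaction -0.35 to 0.10. With averaged probe sets Cd44 under dorsomorphin in stimulated cells was 0.028, and Braf and Sos1 in unstimulated cells were 0.15 and 1.64. The cause was not tested. Counts over all genes, with the array-wise leave-outs in brackets, were 3270 with stimulation against 1668 to 4408 under the alternatives (0 to 2940), 3096 for dorsomorphin in stimulated cells against 0 to 4099 (999 to 2648), 1826 in unstimulated cells against 883 to 3101 (0 to 1591), 0 for stimulation under dorsomorphin against 0 to 2 (0 to 0), 1010 for stimulated cells given dorsomorphin over control against 0 to 2185 (0 to 760) and 12 for the interaction against 0 to 2036 (0 to 803). With 2 arrays a group and 4 residual degrees of freedom, intervals were wide for genes near the floor such as Egr3 in unstimulated cells. Over the alternatives other than leave-outs, stimulation raised 8 to 12 of the Egr-linked genes and 2 to 6 of the immediate early genes, and dorsomorphin in stimulated cells lowered 0 to 13 and 0 to 7 of them, the 0 in each case with only the arrays compared. Of the upstream list, 0 to 5 fell with stimulation, 0 to 3 with dorsomorphin in stimulated cells and 1 to 6 in unstimulated cells. Averaging probe sets took Egr3 to 3.51 with stimulation and -2.76 with dorsomorphin after it.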
